A study of Mus musculus with 4 samples.

Results

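The circadian clock genes were followed in differentiated 3T3-L1 cells exposed to risperidone. The 10 genes Clock, Arntl, Npas2, Per1, Per2, Per3, Cry1, Cry2, Dbp and Tef were chosen by name, as the activators and repressors of the core clock loop and its PAR bZIP outputs. All 10 were among the 16051 genes of the deposited table. Risperidone is an antipsychotic that blocks dopamine and serotonin receptors. 3T3-L1 is a mouse embryonic fibroblast line, of NIH SWISS strain per the labels, that can be turned into adipocytes with a cocktail of isobutyl-methylxanthine, dexamethasone and insulin. Per the study's methods, differentiated cells received 100 µM risperidone or its vehicle DMSO for 48 h, and each treatment was sequenced as 2 libraries, each pooled from 3 cultures. The labels describe the control as untreated rather than as DMSO, the name used here. No clock time of harvest was stated in the sources used here, nor any step named as synchronising. The cocktail, which holds the glucocorticoid dexamethasone, came before the drug, and its effect on clock phase was not tested. Both treatments were sampled at 1 time only. A change in the level of a rhythmic transcript and a shift in its phase therefore cannot be told apart. Bulk RNA likewise cannot tell fewer cells of a type from less RNA per cell.

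In mammalian cells, CLOCK (or its paralogue NPAS2) pairs with BMAL1, the product of Arntl, and the pair binds E-box sequences to switch on the Per and Cry genes. PER and CRY proteins then return to the nucleus and block the pair, which closes a loop of about a day. A second loop is formed by the REV-ERB repressors (Nr1d1, Nr1d2) and the ROR activators (Rora among them), which compete for ROR elements in Arntl, Clock and other genes. Dbp and Tef, with Hlf, encode PAR bZIP activators that bind D-box sequences, a site shared with the repressor encoded by Nfil3. Clock components of adipose cells are known to bear on lipid metabolism, and Per1 is a known early target of glucocorticoid and cAMP signals.

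The promoters below show the binding letters that this feedback uses. Windows of 250 bases before to 50 bases after each RefSeq transcript start on build GRCm38.p6 were searched on both strands, and 9 of the 10 genes matched the RefSeq promoter table with 14 windows in all; Per2 had no entry. The first 250 bases of the Per1 window (chr11:69098699-69098948, plus strand) are shown because it alone of the members held an E-box, a ROR core and a D-box together. The same stretch of Cry1 (chr10:85185055-85185304, minus strand) is shown for its neighbouring E-prime box and E-box, that of Dbp (chr7:45704997-45705246, plus strand) because the member that rose most held none of these letters, and that of Ciart (chr3:95882229-95882478, minus strand), a repressor of CLOCK and BMAL1 outside the 10, for its 3 E-boxes. For Arntl, the member that fell most, 30 bases around a ROR core just after its second listed start are shown (chr7:113207530-113207559, plus strand). Capitals mark E-box, E-prime box, D-box and ROR core letters on either strand.
Per1: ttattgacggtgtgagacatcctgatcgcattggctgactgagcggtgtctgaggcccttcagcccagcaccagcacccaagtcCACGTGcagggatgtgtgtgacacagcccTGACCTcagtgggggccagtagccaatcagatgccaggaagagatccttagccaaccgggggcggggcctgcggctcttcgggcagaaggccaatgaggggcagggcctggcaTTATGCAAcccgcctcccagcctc
Cry1: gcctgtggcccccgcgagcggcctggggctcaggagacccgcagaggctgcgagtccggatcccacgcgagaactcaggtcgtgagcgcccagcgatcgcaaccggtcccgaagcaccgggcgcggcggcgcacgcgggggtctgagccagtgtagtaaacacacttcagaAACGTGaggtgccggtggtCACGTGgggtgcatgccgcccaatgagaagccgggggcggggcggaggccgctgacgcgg
Dbp: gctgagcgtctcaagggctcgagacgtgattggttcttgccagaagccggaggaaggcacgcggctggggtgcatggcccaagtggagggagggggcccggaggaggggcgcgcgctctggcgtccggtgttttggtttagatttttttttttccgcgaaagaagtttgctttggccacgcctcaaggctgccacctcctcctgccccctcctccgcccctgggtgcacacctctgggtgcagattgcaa
Arntl: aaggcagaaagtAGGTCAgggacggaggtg
Ciart: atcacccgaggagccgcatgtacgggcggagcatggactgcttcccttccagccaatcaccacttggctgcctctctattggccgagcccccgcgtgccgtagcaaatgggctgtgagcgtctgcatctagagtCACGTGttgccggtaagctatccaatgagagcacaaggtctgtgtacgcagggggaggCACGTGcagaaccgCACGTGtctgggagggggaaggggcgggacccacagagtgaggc

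The E-box letters CACGTG occurred in 4 of the 14 windows, those of Per1 (1 of its 2), Cry1 and Tef (both), and in 7.15% of all 32851 RefSeq windows of the same length. In Per1 they began 166 bases before the start, in Cry1 60 bases before it, and in Tef 127 and 138 bases before its 2 starts. The E-prime box CACGTT was found in Cry1, 79 bases before the start, and in Cry2, 166 bases before it, or 2 of the 14 windows, and in 4.68% of all windows. The D-box TTATGNAA lay 24 bases before the start of Per1 and 205 and 158 bases before that of Per3, or in 2 of the 14 windows, and occurred in 3.38% of all windows. The ROR core AGGTCA was found in 1 window each of Clock, Arntl and Per1, or 3 of 14, and in 16.3% of all windows. The cAMP element TGACGTCA occurred in none of the members' windows and in 1.79% of all windows. Its shorter core TGACG, which every full element contains, occurred in 4 of the 14 windows, of Per1, Cry1 and Cry2, and in 20.8% of all windows. The glucocorticoid receptor letters AGAACA were found in 1 of the 14 windows, of Tef, and in 19.0% of all windows. The windows of Dbp and Npas2 held none of these letters. These matches describe the letters of short windows and do not show binding.

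**Figure D1:**
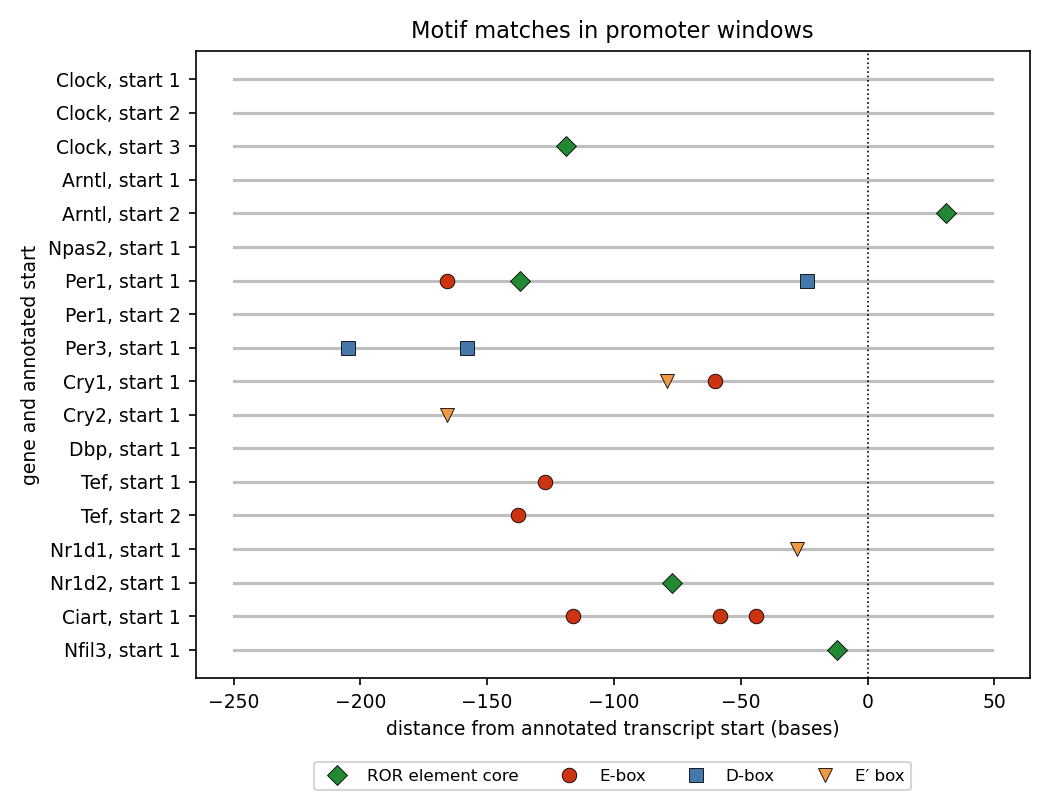
Distance in bases from the annotated transcript start (dotted line at 0) of each E-box, E-prime box, D-box and ROR core match, with 1 row per promoter window of 9 clock genes and 4 genes of the second loop. The Per1 window holds an E-box at 166, a ROR core at 137 and a D-box at 24 bases before the start, while those of Dbp and Npas2 are empty.

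The libraries were of similar depth, with 15883712 to 16374119 estimated counts each. Of the table, 10243 genes had a mean of at least 1 FPKM (fragments per kilobase of transcript scaled to the mapped fragments, a level per length) over the 4 libraries and were tested with edgeR's quasi-likelihood test. At a Benjamini-Hochberg adjusted p under 0.05, 3287 of the tested genes (32.1%) were higher and 3303 (32.2%) lower after risperidone, together 64.3%. Changes of at least 1 on the log2 scale were fewer, 2.61% higher and 3.91% lower. The labelled cell type was only partly borne out by markers. Of 10 adipocyte markers, 7 were under 1 FPKM in every library, Adipoq, Plin1, Cidec and Cebpa among them, while Fabp4, Lpl and Pparg were expressed. The 10 summed to 377 and 431 FPKM with DMSO and to 265 and 275 FPKM with risperidone. The 8 preadipocyte and fibroblast markers summed to 588 and 582 FPKM with DMSO and to 944 and 915 FPKM with risperidone. Most of that sum was Col1a1, at 379.76 and 368.28 FPKM with DMSO and 714.61 and 674.25 FPKM with risperidone, and the 7 of these markers that were tested held 4 higher and 2 lower, the latter Col3a1 and Pdgfrb. The part of these markers in the clock results was not tested. Risperidone replicate 2 stood apart. It held 191 FPKM of 11 kidney markers in sum, against 1.64 to 2.68 FPKM in the other 3 libraries, so values without it are also given for the members, the second loop and the counts of the other lists. The extraction protocol in the labels names retina, but the 5 retina markers in the table were all under 1 FPKM in every library.

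Of the 9 clock genes tested, 3 were higher after risperidone (Per1, Cry2 and Dbp) and 2 lower (Clock and Arntl), against the 32.1% and 32.2% of all genes given above. The other 4, Per2, Per3, Cry1 and Tef, did not pass the threshold, and Npas2 was too low to be tested. The median log2 fold change of the 9 was 0.14, beside 0.00 over all tested genes, with a range from -1.27 (Arntl) to 1.46 (Dbp). These shares were near those of all genes, and the members stood out by size of change in 2 cases only. Dbp was 1 of the 2.61% of genes raised by at least 1 on the log2 scale, and Arntl 1 of the 3.91% lowered by as much.

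**Figure D2:**
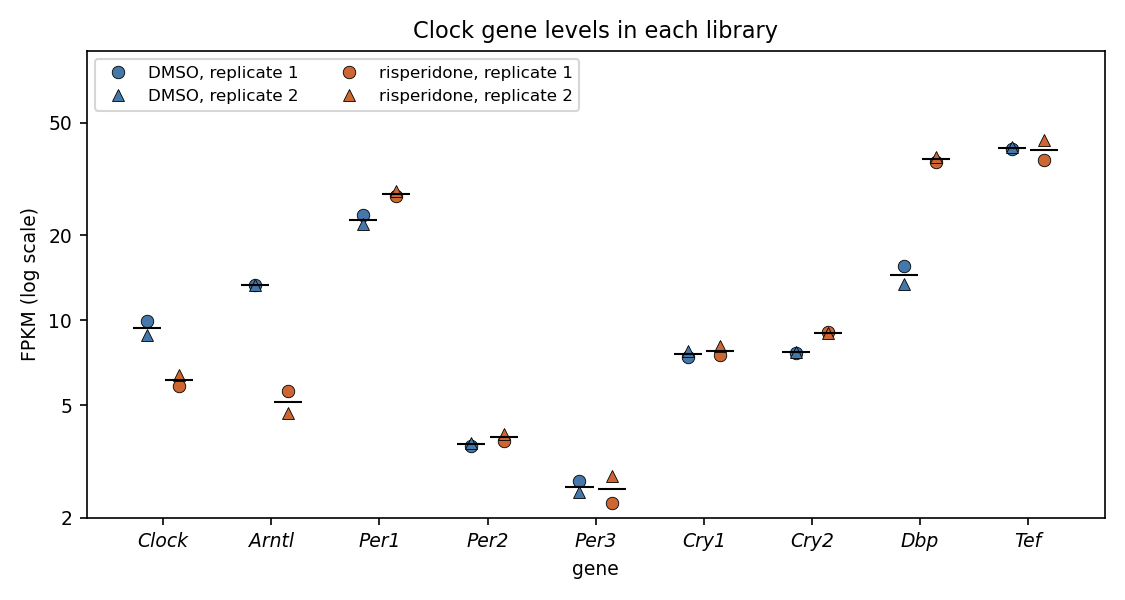
FPKM of the 9 tested clock genes on a log axis, in blue for DMSO and orange for risperidone, with circles for replicate 1, triangles for replicate 2 and a line at each group mean. Clock and Arntl sit lower with risperidone, and Dbp, Per1 and Cry2 sit higher, without overlap. Per2 also sits higher without overlap but did not pass the threshold. Npas2, at 0 to 0.02 FPKM, is not drawn.

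Both activators of the main loop that these cells expressed were lower after risperidone. Arntl (NCBI Gene 11865, chr7:113178471-113314126), whose product BMAL1 is the shared partner of the loop, measured 13.38 and 13.37 FPKM in the DMSO libraries and 5.61 and 4.70 FPKM in the risperidone libraries. Both risperidone values lay below both DMSO values, and the group means were 13.4 ± 0.00707 and 5.16 ± 0.643 FPKM (SD, n = 2 each). Arntl fell by 1.27 on the log2 scale (SE 0.0852, 95% interval -1.46 to -1.08), a level 2.41-fold lower, with an adjusted p of 4.40e-07 by edgeR's quasi-likelihood test. A larger change in either direction was seen in 346 of the tested genes, or 3.38%. The gene rested on 582 and 606 counts with DMSO and on 209 and 252 counts with risperidone.

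Clock (NCBI Gene 12753, chr5:76209868-76305603), which encodes the histone acetyltransferase partner of BMAL1, measured 9.95 and 8.86 FPKM with DMSO and 5.87 and 6.41 FPKM with risperidone. The risperidone libraries were again both below the DMSO libraries, with means of 9.41 ± 0.771 and 6.14 ± 0.382 FPKM (SD, n = 2 each). Clock fell by 0.55 on the log2 scale (SE 0.0739, 95% interval -0.71 to -0.39, adjusted p = 6.76e-05 by edgeR), or 1.47-fold, a change that 24.3% of tested genes exceeded. Summed, Clock and Arntl made up 23.33 and 22.23 FPKM with DMSO and 11.48 and 11.11 FPKM with risperidone. Npas2 (NCBI Gene 18143, chr1:39193702-39363240), the paralogue that can stand in for Clock, had 1 count in DMSO replicate 1 and 0 in the other 3 libraries, where a count of 0 allows up to 3 counts, or 0.184 to 0.189 CPM. Its level was too low for a comparison of treatments at this depth, and no ratio of Clock to Npas2 could be formed.

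Among the Per repressors, Per1 rose and the other two did not pass the test. Per1 (NCBI Gene 18626, chr11:69095108-69109965) measured 23.52 and 21.93 FPKM with DMSO and 27.49 and 28.63 FPKM with risperidone. Both risperidone libraries exceeded both DMSO libraries, with means of 22.7 ± 1.12 and 28.1 ± 0.806 FPKM (SD, n = 2 each). Per1 rose by 0.40 on the log2 scale (SE 0.0524, 95% interval 0.29 to 0.52, adjusted p = 5.70e-05 by edgeR), a 1.32-fold increase that 38.2% of tested genes exceeded in size. Per2 (NCBI Gene 18627, chr1:91415977-91459351), a rate-limiting partner of the repressor complex, measured 3.60 and 3.69 FPKM with DMSO and 3.73 and 3.97 FPKM with risperidone. The groups did not overlap, but the log2 difference of 0.17 (SE 0.0848, 95% interval -0.02 to 0.36) did not pass the threshold (adjusted p = 0.0987 by edgeR). Per3 (NCBI Gene 18628, chr4:150997018-151044707), the least essential Per gene for the rhythm itself, measured 2.69 and 2.47 FPKM with DMSO and 2.25 and 2.82 FPKM with risperidone. The risperidone libraries lay on either side of the DMSO libraries, and the log2 difference was 0.12 (SE 0.128, 95% interval -0.16 to 0.41, adjusted p = 0.410 by edgeR). Per1 accounted for 78.9% and 78.1% of the summed Per FPKM with DMSO and for 82.1% and 80.8% with risperidone.

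The cryptochromes encode the strongest repressors of the CLOCK and BMAL1 pair. Cry2 (NCBI Gene 12953, chr2:92403646-92434085) measured 7.69 and 7.74 FPKM with DMSO and 9.07 and 9.0 FPKM with risperidone, without overlap. It rested on 482 and 471 counts with DMSO and on 571 and 552 counts with risperidone. Cry2 rose by 0.33 on the log2 scale (SE 0.0591, 95% interval 0.20 to 0.46, adjusted p = 0.000541 by edgeR), or 1.26-fold, and 46.3% of tested genes changed by more. Cry1 (NCBI Gene 12952, chr10:85131700-85185054), the later acting of the pair, measured 7.41 and 7.82 FPKM with DMSO and 7.51 and 8.09 FPKM with risperidone. Its groups overlapped, and the log2 difference of 0.14 (SE 0.0831, 95% interval -0.04 to 0.33) did not pass the threshold (adjusted p = 0.15 by edgeR). Whether the changes of Per1 and Per2, or of Cry2 and Cry1, differed from each other was not tested. As a description, the ratio of Per1 to Per2 was 6.53 and 5.94 with DMSO and 7.37 and 7.21 with risperidone, and that of Cry1 to Cry2 was 0.964 and 1.01 with DMSO and 0.828 and 0.899 with risperidone.

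Of the output activators, Dbp showed the largest change of the members and Tef did not pass the test. Dbp (NCBI Gene 13170, chr7:45705100-45710203), a direct E-box target of the clock in many tissues, measured 15.51 and 13.41 FPKM with DMSO and 36.21 and 37.99 FPKM with risperidone. Both risperidone values were above both DMSO values, with means of 14.5 ± 1.48 and 37.1 ± 1.26 FPKM (SD, n = 2 each). Dbp rose by 1.46 on the log2 scale (SE 0.0673, adjusted p = 4.48e-08 by edgeR), or 2.76-fold, and only 229 tested genes (2.24%) changed by more. In GENCODE M21, 539 exonic bases of Dbp overlap Sphk2 on the opposite strand. The sources used here do not say whether strand was used in counting. The estimated counts of both genes were fractional, at 368.62 and 610.38 in DMSO replicate 1, and added up to a whole number in each library. Reads were thus divided between these genes without regard to strand, and the values of each depend on that division. Sphk2, added after its values were seen, measured 11.92 and 11.66 FPKM with DMSO and 11.01 and 10.87 FPKM with risperidone, a log2 difference of -0.07 that did not pass the threshold (adjusted p = 0.302 by edgeR). Exons of Cry2, Tef and Arntl also overlap antisense transcripts, by 295, 193 and 33 bases, none of which was listed in the deposited table.

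Tef (NCBI Gene 21685, chr15:81802673-81826863), an activator of the same D-box sites, was the most abundant member with DMSO, at 40.42 and 41.17 FPKM. With risperidone it measured 36.82 and 43.35 FPKM, below and above the DMSO libraries. Its log2 difference was 0.07 (SE 0.0670, 95% interval -0.08 to 0.22, adjusted p = 0.376 by edgeR). For Tef and Per3 the mean FPKM was slightly lower with risperidone while the fitted log2 difference, which comes from the counts with TMM scaling, was above 0. With library size as the only scaling that of Tef was -0.02 and that of Per3 still 0.03.

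**Figure D3:**
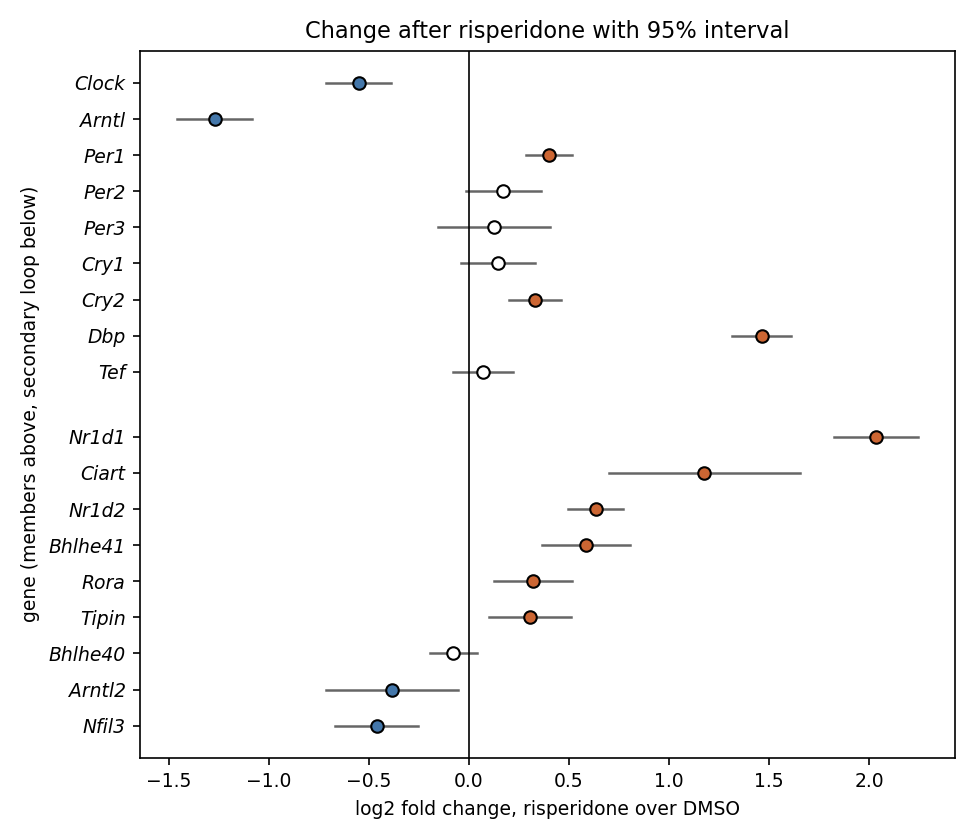
Log2 fold change (risperidone over DMSO, edgeR with TMM scaling) of the 9 tested clock genes above and the 10 tested genes of the second loop below, 1 of them left out, with bars for 95% intervals, in orange where higher, blue where lower and white where not past the threshold. Dbp, Nr1d1 and Ciart lie above 1 and Arntl lies below -1, while the intervals of Per2, Per3, Cry1, Tef and Bhlhe40 include 0.

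The order of the levels per length differed between the treatments. With DMSO it ran Tef, Per1, Dbp, Arntl, Clock, Cry2, Cry1, Per2, Per3 and Npas2, and among neighbours only the ranges of Cry2 and Cry1 overlapped. With risperidone it ran Tef, Dbp, Per1, Cry2, Cry1, Clock, Arntl, Per2, Per3 and Npas2, and only the ranges of Tef and Dbp overlapped. Dbp thus stood above Per1 with risperidone and below it with DMSO, and Arntl and Clock stood below both cryptochromes with risperidone and above them with DMSO. The ratio of Dbp to Arntl FPKM was 1.16 and 1.0 in the DMSO libraries and 6.45 and 8.08 in the risperidone libraries. This ratio, given as a description, joins the members with the largest changes in each direction.

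Outside the 10 members, the second loop was described in the same way. Of its 13 listed genes, 12 were in the table and 10 were tested. Of these, 7 were higher, 2 lower and 1 did not pass the threshold, with a median log2 fold change of 0.45, beside 32.1% higher and 32.2% lower over all tested genes. Nr1d1, which encodes the repressor REV-ERB alpha, measured 17.71 and 16.45 FPKM with DMSO and 72.37 and 58.50 FPKM with risperidone, with no overlap. It rose by 2.03 on the log2 scale (SE 0.0949, adjusted p = 4.75e-08 by edgeR), and only 77 tested genes (0.752%) changed by more. Its exons overlap 263 bases of the antisense gene Thra, whose log2 fold change, looked up after the values were seen, was 0.25 (adjusted p = 0.00198 by edgeR). The counts of Nr1d1 and Thra were likewise fractional and added up to whole numbers, so their values also depend on how reads were divided. The ratio of Nr1d1 to Arntl FPKM, also formed after the data were seen, was 1.32 and 1.23 with DMSO and 12.9 and 12.4 with risperidone. Nr1d2, the paralogous repressor, measured 11.52 and 11.86 FPKM with DMSO and 16.56 and 17.42 FPKM with risperidone, and rose by 0.63 on the log2 scale (adjusted p = 7.21e-06 by edgeR).

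Rora, an activator that competes with REV-ERB for ROR elements, rose by 0.32 (adjusted p = 0.00783), a call lost without DMSO replicate 2 (0.25, adjusted p = 0.0917) and without risperidone replicate 2 (0.23, adjusted p = 0.0602, both by edgeR). Ciart, whose 3 E-boxes are printed above, measured 1.95 and 3.55 FPKM with DMSO and 5.22 and 5.37 FPKM with risperidone. It rose by 1.18 on the log2 scale (SE 0.216, adjusted p = 0.000655 by edgeR), a size that depended on the control library, at 0.86 without DMSO replicate 1 and 1.58 without DMSO replicate 2. The E-box repressor gene Bhlhe41 rose by 0.58 (adjusted p = 0.000404), whereas its paralogue Bhlhe40 had a log2 difference of -0.08 that did not pass the threshold (adjusted p = 0.219 by edgeR). Bhlhe40 was called lower, however, without risperidone replicate 1 (-0.15, adjusted p = 0.0306 by edgeR) and with library size as the only scaling (-0.17, adjusted p = 0.0139 by edgeR), and was near 0 without risperidone replicate 2 (-0.01, adjusted p = 0.818 by edgeR). Nfil3, the repressor at D-boxes, measured 28.15 and 30.08 FPKM with DMSO and 21.72 and 17.69 FPKM with risperidone. It fell by 0.46 on the log2 scale (adjusted p = 0.00130 by edgeR). The D-box activators did not move together, as Dbp rose and Tef did not pass the threshold. Hlf, which was not tested, measured 1.34 and 1.15 FPKM with DMSO and 0.63 and 0.85 FPKM with risperidone. Without risperidone replicate 2 the fall of Nfil3 was smaller, at -0.31, and still past the threshold. Tipin, which encodes a partner of TIMELESS, rose by 0.31 (adjusted p = 0.0133 by edgeR), a call lost without either DMSO library (adjusted p = 0.0826 and 0.133). The paralogue Arntl2 fell by 0.39 (adjusted p = 0.0422 by edgeR), a call that was lost whichever of the 4 libraries was left out. Hlf and Timeless had means under 1 FPKM over the 4 libraries and were not tested.

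Genes that modify or follow the clock moved in both directions. Of 14 tested modifiers of clock proteins, 6 were higher, 4 lower and 4 not past the threshold, with a median log2 fold change of 0.11. Over all tested genes, 32.1% were higher and 32.2% lower. Fbxw7, a ubiquitin ligase subunit gene, fell by 0.69 (adjusted p = 5.18e-06), and Prkaa2, a catalytic subunit of AMPK, rose by 0.71 (adjusted p = 0.000261, both by edgeR). Of 7 clock output genes, all tested, 5 were higher, 1 lower and 1 not past the threshold, with a median of 0.19, beside the same 32.1% and 32.2%. Por, the electron donor of cytochrome P450 enzymes, rose by 0.84 (adjusted p = 1.41e-07), and Wee1, a cell cycle kinase gene with E-boxes, rose by 0.75 (adjusted p = 7.55e-06 by edgeR). Noct, a rhythmic phosphatase gene active in lipid metabolism, fell by 0.82 (adjusted p = 4.45e-05 by edgeR).

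Genes of the signals that reset the clock, to which Per1 responds, were also mixed. All 11 tested glucocorticoid targets passed the threshold, 5 higher and 6 lower, where 64.3% of all tested genes passed, with a median log2 fold change of -0.16. Dusp1 fell by 2.53 and Lcn2 by 1.47, and Klf15 rose by 1.41 (adjusted p = 1.11e-08, 1.13e-08 and 0.000306 by edgeR). Of 11 tested genes of cAMP and CREB signalling, 6 were higher, 3 lower and 2 not past the threshold, with a median of 0.22, beside 32.1% higher and 32.2% lower over all tested genes. Egr1 fell by 1.6, and Nr4a2 and Atf3 rose by 1.29 and 1.18 (adjusted p = 2.58e-07, 4.12e-05 and 0.00218 by edgeR). This list also holds CREB and its coactivators, which are regulators and not targets, and Creb1 and Crtc1 of these fell by 0.49 and 0.47 (adjusted p = 0.000121 and 0.000149 by edgeR), Crtc3 rose by 0.22 (adjusted p = 0.00951 by edgeR) and Crtc2, at -0.05, did not pass the threshold (adjusted p = 0.55 by edgeR). They were named after their values were seen.

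**Figure D4:**
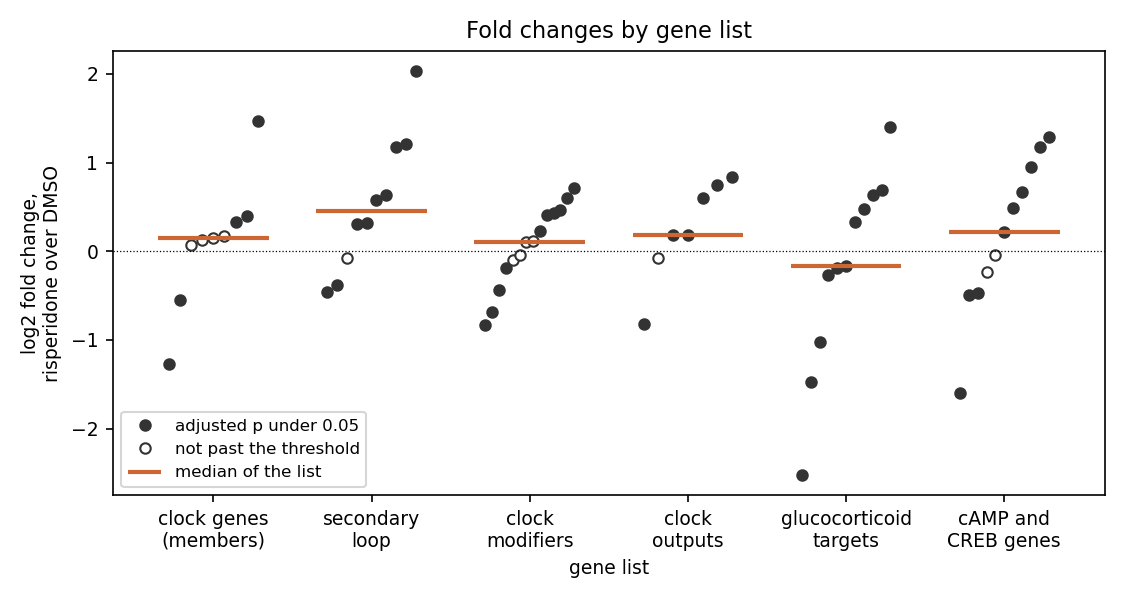
Log2 fold change (risperidone over DMSO) of every tested gene in each of the gene lists, 1 point per gene, filled where the adjusted p was under 0.05, with a line at the median of the list. The clock genes have a median of 0.14 with Dbp and Arntl farthest from it, and the second loop has a median of 0.45 with Nr1d1 highest, at 2.03.

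The 5 members past the threshold kept their direction without the library with kidney transcripts. The risperidone arm was then replicate 1 alone, so its own spread could not be measured. Without risperidone replicate 2, the log2 fold changes were -1.15 for Arntl, -0.61 for Clock, 0.38 for Per1, 0.35 for Cry2 and 1.44 for Dbp. Those of Per2 and Cry1 were smaller than with all libraries, at 0.10 and 0.08, and those of Per3 and Tef became -0.06 and -0.05. In the second loop without that library, Nr1d1 was at 2.19, Nr1d2 at 0.60, Bhlhe41 at 0.72, Ciart at 1.16 and Tipin at 0.32, each past the threshold by edgeR, and 6 genes were higher and 1 lower. The modifiers then held 8 higher and 4 lower genes, the outputs 4 and 1, the glucocorticoid targets 5 and 6, and the cAMP and CREB genes 6 and 3. Without risperidone replicate 1, 6 members were higher in place of 3, as Per2 (0.24, adjusted p = 0.0407), Per3 (0.29, adjusted p = 0.0364) and Tef (0.18, adjusted p = 0.00601) also passed by edgeR. The risperidone arm was then the library with kidney transcripts alone. Over all 16 alternative settings, Arntl ranged from -1.43 to -1.15, Clock from -0.71 to -0.37 and Dbp from 1.19 to 1.55, always past the threshold. The calls of Per1 and Cry2 were lost under 1 setting, limma on log2(TPM + 1), at 0.16 (adjusted p = 0.0669) and 0.08 (adjusted p = 0.403).

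**Figure D5:**
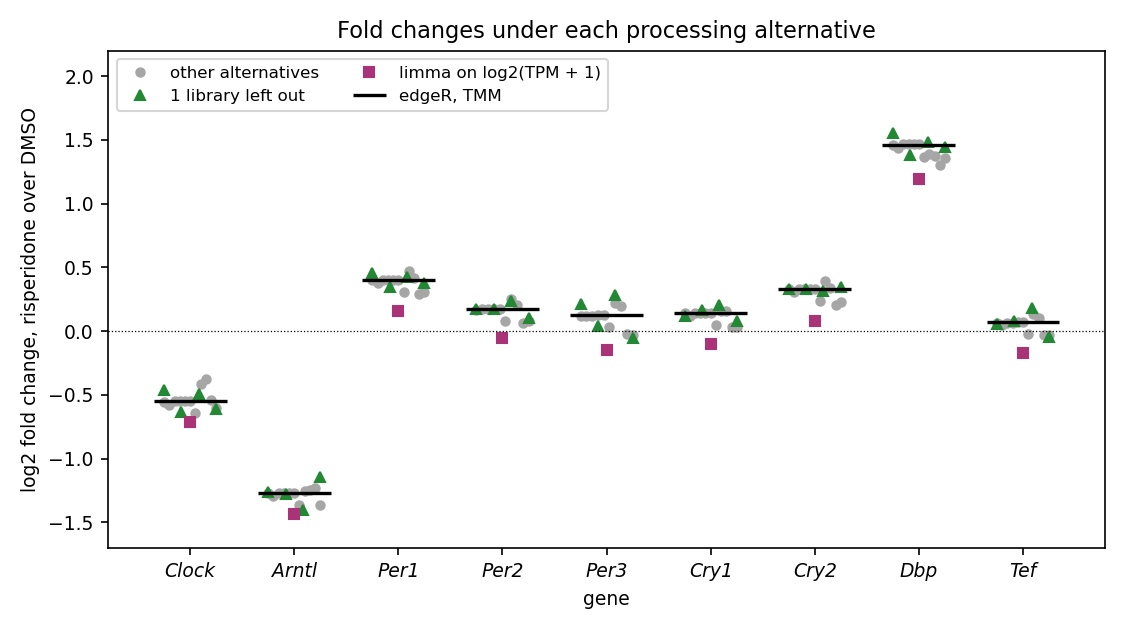
Log2 fold change (risperidone over DMSO) of each tested clock gene in the reported edgeR fit (black line) and under the alternative settings, with triangles for fits without 1 library, squares for limma on log2(TPM + 1) and grey circles for the others. Arntl, Clock and Dbp keep their sign throughout, whereas the points of Per3 and Tef lie on both sides of 0.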

How the data were processed

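Differentiated 3T3-L1 cells were treated with DMSO or risperidone (2 libraries each, pooled from 3 cultures, MGISEQ-2000 sequencing per the study's methods). P-values therefore measure the spread between pools, not between single cultures. The submitters' processing notes name Bowtie2, RSEM, DESeq2 and build GRCm38.p6, without versions. The authors deposited an estimated count per gene and library, not normalized, of which 91.2% to 91.7% were exactly whole. The authors also deposited FPKM values, scaled by gene length and mapped reads, and TPM values, which have an equal sum per library. Whether counting used strand is not given in the sources used here. The fractional counts of Dbp with Sphk2, and of Nr1d1 with Thra, showed reads divided between genes of opposite strands.

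Counts were rounded, scaled by TMM and tested with edgeR 4.0.16 in R 4.3.3 (quasi-likelihood F-test, two-sided, risperidone against DMSO) over the 10243 genes whose 4 libraries averaged 1 FPKM or more, with Benjamini-Hochberg adjustment over all of them and a threshold of 0.05. The biological coefficient of variation was 0.0468. Alternatives were no filter or a mean of 5 FPKM, a replicate block, each library left out (the lone library is then assumed to vary like the other pair), RLE or library size scaling, offsets for gene length and GC content, DESeq2 1.42.0, and limma 3.58.1 on log2 FPKM with pseudocounts of 1 and 0.1 and on log2 TPM with 1. All 10 members and every tested gene of the second loop were named, and of every other clock or signalling list the 3 called genes with the largest change, apart from 2 genes that are counted in their lists but not reported here by name. The members, lists and motifs were chosen with earlier results of these data known. Promoters were from RefSeq and exon overlaps from GENCODE M21, both on GRCm38. Figures were drawn with Python 3.11.15 and matplotlib 3.10.9.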

Additional observations from a re-analysis of the deposited data

How the results depend on the processing

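Of 142 alternative values for the 9 tested clock genes, 124 kept direction and side of the threshold, 2 lost a call, 5 gained one and 11 turned direction. The count of members called higher, 3 in the report, was 1 with limma on log2(TPM + 1) and 3 to 6 with 1 library left out, 6 without risperidone replicate 1. The count called lower was 2 throughout. Of the other clock genes (second loop, modifiers and outputs), 18 were called higher and 7 lower. The former was 12 with log2(TPM + 1), 13 at a mean of 5 FPKM and 14 with DESeq2 or without DMSO replicate 2. The latter was 11 with library size only and with limma on log2(FPKM + 1), log2(FPKM + 0.1) and log2(TPM + 1), and 4 to 6 with 1 library left out, 4 without DMSO replicate 1. These settings moved the median of all genes to -0.09, -0.08, -0.09 and -0.22, and the share of calls that were higher from 49.9% to 37.9%, 37.8%, 37.9% and 22.5%. The log2 fold changes that turned were those of Tef with library size only (-0.0230), Tef and Per3 with limma on log2(FPKM + 1) (-0.0292 and -0.0223) and on log2(FPKM + 0.1) (-0.0300 and -0.0317), and Per2, Per3, Cry1 and Tef on log2(TPM + 1) (-0.0550, -0.148, -0.104 and -0.171). With 1 library left out, Per3 ranged from -0.0575 to 0.29 and Tef from -0.0497 to 0.18, Per2 from 0.10 to 0.24 and Cry1 from 0.08 to 0.21, all lowest without risperidone replicate 2. Per2 was called with gene length offsets (0.25, adjusted p = 0.0188 by edgeR) and with length and GC offsets (0.20, adjusted p = 0.0477). Deviations of same-numbered libraries had a correlation of -0.123, which with 2 libraries per treatment cannot show whether any shared a batch. Of 156 alternative values for the second loop, 134 kept their call, 17 lost one and 5 gained one. Tipin lost its call with DESeq2, library size only and log2(TPM + 1) besides, Rora with DESeq2 and the 3 limma fits, Arntl2 with DESeq2 and with length and GC offsets besides the leave-one-out fits, and Bhlhe40 gained one with the 3 limma fits. A replicate block left the members at 3 higher and 2 lower and the other clock genes at 18 and 7. With crossed numbers, added after seeing the data along with the GC offset, all genes gave 3474 higher and 3519 lower calls. Of the members, Npas2 alone was below what this depth can compare.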
